A study of Mus musculus with 6 samples.

Results

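The genes described here code for the secreted and membrane-bound metalloproteases that cut extracellular matrix and cell surface proteins, and for their tissue inhibitors. They comprise the matrix metalloproteases (MMP), the ADAM proteases, the ADAMTS proteases and the TIMP genes, and were taken by symbol (Mmp, Adam, Adamts or Timp followed by a number and at most 1 letter). The rule matched 80 of the 43074 gene symbols in a table of RNA sequencing counts, namely 23 MMP, 34 ADAM, 19 ADAMTS and 4 TIMP genes. Of these, 59 had 10 or more counts summed over the 6 libraries and are described, 13 had 1 to 9 counts and 8 had none. The libraries came from C2C12, an established mouse myoblast line that fuses into myotubes when serum is changed, with a wild-type genotype in every group. Growth medium held 10% fetal bovine serum in every group, and untreated cells were taken at day 0. The other cells spent 4 days in differentiation medium with 5% horse serum. They received either dimethyl sulfoxide (DMSO) or 1 mM 4-phenylbutyric acid (4-PBA). The latter is a small aromatic fatty acid that inhibits histone deacetylases and helps proteins fold. Each of the 3 groups had 2 libraries.

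The active proteases of these families hold a zinc ion and are made as inactive precursors, which furin-like convertases, plasmin or other proteases cut to activate them. TIMP proteins bind the active site and block it, and TIMP2 also takes part in the activation of MMP2 by MMP14 on the cell surface. In muscle, ADAM12 marks fusing and regenerating cells, ADAMTS proteases clear versican from the matrix around fusing myoblasts, and MMP2, MMP9 and MMP14 remodel the basement membrane.

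Total counts were 47908926 to 74697397 per library, and the common biological coefficient of variation between replicates was 3.74%. Expression is given as CPM, the normalised count that edgeR computes from scaled library sizes, and differences as log2 fold changes with a standard error (SE). A gene is called when its adjusted p, from the quasi-likelihood test of edgeR with Benjamini-Hochberg adjustment over 17433 genes, is under 0.05. The labels do not say that replicates were separate cultures, so these p-values measure the spread between the libraries, which may be technical. Muscle markers (9 of 9 detected) summed to 1396 to 1405 CPM at day 0, 7311 to 7530 CPM in DMSO and 7116 to 7217 CPM with 4-PBA, so markers of the labelled cell type were present in all groups. The 3 cycling markers summed to 1104 to 1122, 305 to 360 and 383 to 392 CPM in the same order. Markers of other cell types were low: the 4 endothelial genes summed to at most 2.58 CPM, the 4 leukocyte and macrophage genes to at most 6.11 CPM (mostly Cd68, with 5.39 CPM at day 0), the 3 adipocyte genes to at most 0.391 CPM, the 5 osteoblast and chondrocyte genes to at most 0.396 CPM and the 4 epithelial genes to at most 0.789 CPM. Fabp4 had no counts in either day 4 group, Ibsp none in DMSO, Epcam none at day 0 and Krt18 none with 4-PBA. The muscle and cycling markers moved with the same groups as the proteases, and their part in the differences was not tested. In bulk RNA, fewer cells of a type and less RNA per cell cannot be told apart.

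Promoter windows in RefSeq (build GRCm38.p6, from 250 bases before to 50 after the start of transcription) were found for 34 of the 59 described genes, in 38 windows. On chromosome 9, 10 MMP genes sit in a row in that annotation, in the order Mmp13, Mmp12, Mmp1b, Mmp3, Mmp1a, Mmp10, Mmp8, Mmp27, Mmp20 and Mmp7. The 250 bases before the start are shown for 3 of them, because Mmp10 fell during differentiation while its neighbours Mmp3 and Mmp13 rose. They lie on the plus strand at chr9:7502092-7502341 (Mmp10), chr9:7445572-7445821 (Mmp3) and chr9:7272264-7272513 (Mmp13). Capitals mark the letters of the AP-1 motif, TGANTCA, and of the TATA box, TATAAA.
Mmp10: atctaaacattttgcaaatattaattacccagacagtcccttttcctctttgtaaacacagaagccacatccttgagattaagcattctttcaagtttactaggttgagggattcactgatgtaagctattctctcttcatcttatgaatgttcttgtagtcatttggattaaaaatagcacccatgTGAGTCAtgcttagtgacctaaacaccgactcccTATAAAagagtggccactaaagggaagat
Mmp3: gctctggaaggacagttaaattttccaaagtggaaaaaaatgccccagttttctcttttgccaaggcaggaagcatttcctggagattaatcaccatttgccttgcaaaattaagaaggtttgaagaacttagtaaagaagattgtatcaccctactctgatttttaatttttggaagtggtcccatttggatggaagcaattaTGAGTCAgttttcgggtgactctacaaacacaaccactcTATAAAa
Mmp13: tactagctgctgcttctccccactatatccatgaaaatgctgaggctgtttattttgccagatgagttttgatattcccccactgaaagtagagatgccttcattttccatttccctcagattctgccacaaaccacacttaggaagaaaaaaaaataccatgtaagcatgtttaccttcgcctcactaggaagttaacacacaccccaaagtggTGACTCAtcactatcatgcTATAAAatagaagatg
The AP-1 letters began 63 bases before the start in Mmp10, 46 in Mmp3 and 35 in Mmp13, and the TATA box followed them 29, 7 and 16 bases before the start. On either strand, TGANTCA was present in 7.81% of all 32851 promoter windows of this length and TATAAA in 13.6%. Among the 34 members with a window, TGANTCA was found in 6 (Adam19, Mmp10, Mmp12, Mmp13, Mmp1b and Mmp3), and TATAAA in the same 5 MMP genes and Adamts1. The gene that fell and the neighbours that rose thus carry both sets of letters. The rise of Mmp13 rested on 5 and 9 counts at day 0 and 20 and 24 in DMSO, and DESeq2 did not call it.

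Another pair of windows is shown for the letters of the Egr motif, GCGNGGGCG, searched on both strands and marked in capitals. Adamts14 is the protease that fell with 4-PBA, and Mmp14 is the most abundant MMP per length. The Adamts14 sequence is on the minus strand at chr10:61273420-61273669, and the Mmp14 sequence is on the plus strand at chr14:54431348-54431597.
Adamts14: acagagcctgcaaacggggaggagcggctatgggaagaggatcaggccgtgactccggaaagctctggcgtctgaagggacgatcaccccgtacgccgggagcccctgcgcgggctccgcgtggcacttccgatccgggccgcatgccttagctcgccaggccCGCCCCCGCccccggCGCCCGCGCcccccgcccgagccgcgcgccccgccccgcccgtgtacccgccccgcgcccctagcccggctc
Mmp14: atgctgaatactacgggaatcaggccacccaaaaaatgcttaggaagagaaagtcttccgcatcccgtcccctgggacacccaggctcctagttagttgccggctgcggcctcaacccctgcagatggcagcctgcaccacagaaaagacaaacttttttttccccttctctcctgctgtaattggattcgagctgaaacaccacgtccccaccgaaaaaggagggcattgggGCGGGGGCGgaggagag
Matches began 87 and 72 bases before the start of Adamts14, with a further match at base 25 of the transcript, and 17 bases before the start of Mmp14. The motif was present in 5.55% of all windows and in 5 members, which also included Adam23, Mmp11 and Mmp24. The E-box letters CAGCTG, present in 16.3% of windows, were found in 8 members (Adam17, Adam19, Adamts12, Adamts17, Adamts2, Adamts9, Timp2 and Timp4). These matches describe letters and not binding.

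Between day 0 and day 4 in DMSO, most metalloprotease genes with measurable RNA rose, the ADAMTS genes without an exception among those called. Medium, time and the presence of DMSO differ together in this comparison and cannot be told apart. Of the 51 members that passed the filter on low counts, 39 were called, 32 higher and 7 lower, against 66.3% of all tested genes called (33.8% higher and 32.6% lower). The median log2 fold change of the 51 was 0.67, against 0.02 for all tested genes, and the median absolute change was 0.91 against 0.48. Both medians were the same with Mmp9 and Timp4 at the lower bounds given later. By family, 11 of 15 tested MMP genes rose and 2 fell, 14 of 16 ADAMTS genes rose and 0 fell, 4 of 16 ADAM genes rose and 4 fell, and 3 of 4 TIMP genes rose and 1 fell. With library size as the only scaling these counts became 10 and 2, 13 and 0, 4 and 5, and 3 and 1. A change of at least 2-fold was called for 23 members (19 higher and 4 lower), against 21.9% of all tested genes (13.2% higher and 8.78% lower). The 7 genes that fell were Timp1, Adam15, Adam8, Adam23, Adam11, Mmp10 and Mmp24.

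**Figure D1:**
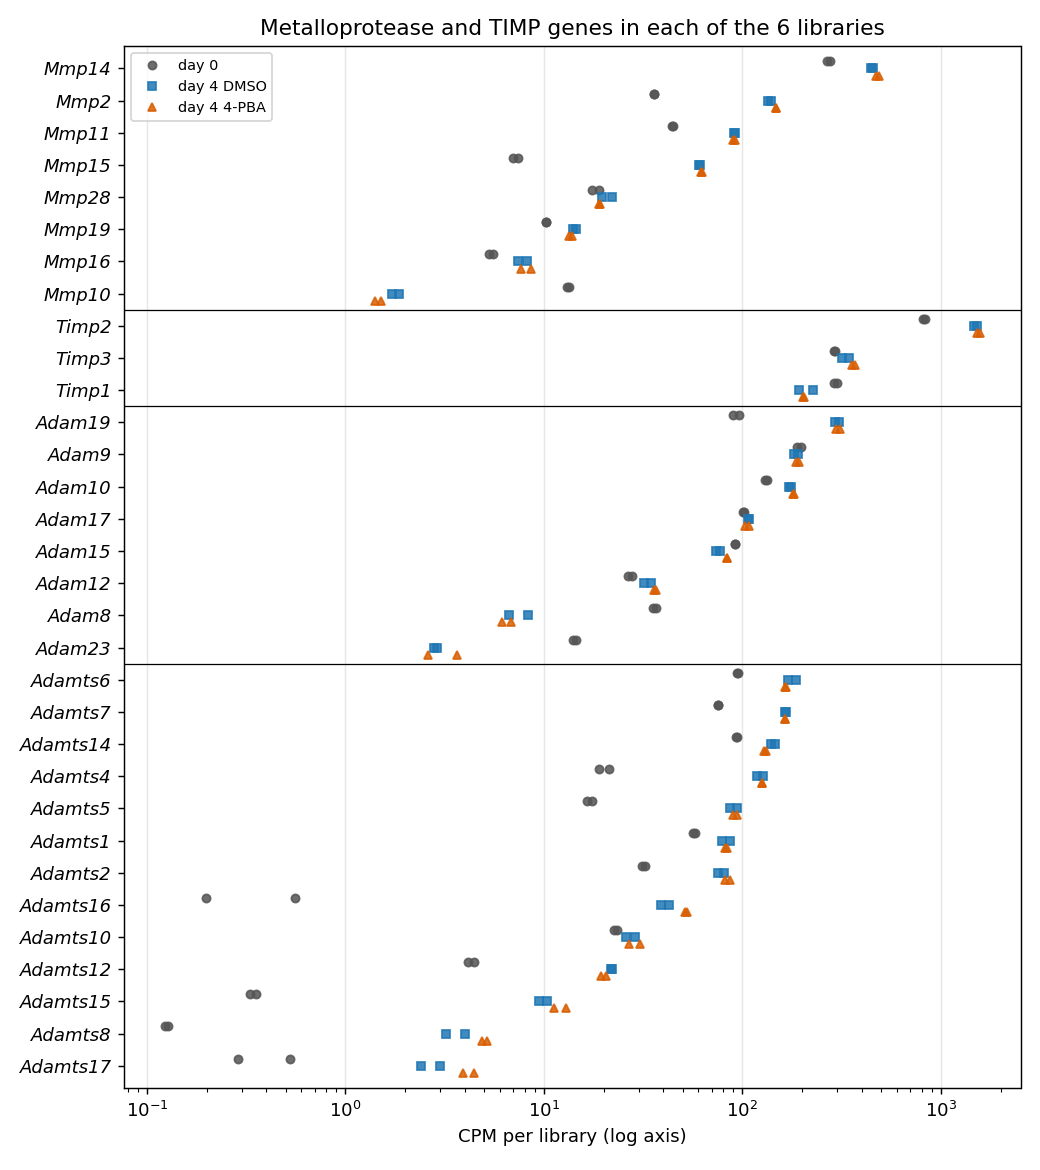
CPM (log axis) of the 32 members with at least 5 CPM in a group or called between 4-PBA and DMSO, 1 point per library, with day 0 as circles, DMSO as squares and 4-PBA as triangles, by family. Day 4 points lie to the right of day 0 for most genes and to the left for Mmp10, Timp1, Adam15, Adam8 and Adam23, and the day 4 groups mostly lie on each other.

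Among the inhibitors, Timp2 rose. Its level was 812 and 832 CPM at day 0, 1467 and 1521 CPM in DMSO, and 1572 and 1526 CPM with 4-PBA. All 4 day 4 libraries stood above day 0, with a log2 fold change of 0.86 (SE 0.0280, adjusted p = 1.51e-24 by edgeR) for DMSO. Timp1, an inhibitor that growth factors and cytokines induce in many cells, went the other way. It stood at 290 and 299 CPM at day 0, 226 and 194 CPM in DMSO, and 206 and 201 CPM with 4-PBA. Every day 4 library was lower than day 0, by a log2 fold change of -0.49 (SE 0.0690, adjusted p = 7.48e-04 by edgeR), and the DMSO libraries were farther apart than those of the other groups. Timp3, the TIMP that stays bound to the matrix and also inhibits ADAM17 and several ADAMTS proteases, was at 290 and 294 CPM, then 344 and 317 CPM in DMSO and 370 and 357 CPM with 4-PBA. The 3 groups did not overlap, and the rise in DMSO was small (log2 fold change 0.18, SE 0.0334, adjusted p = 2.17e-05 by edgeR). Timp4 had 0 counts in both day 0 libraries, 22 and 14 counts in DMSO and 9 and 9 counts with 4-PBA. Against a floor of 3 counts per library its level was at least 5.14-fold higher in DMSO and at least 2.78-fold higher with 4-PBA. Timp4 overlaps Syn2 on the opposite strand, which had 0.741 to 3.81 CPM over the libraries, so the source of these few counts is uncertain.

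The membrane-type MMP genes code for proteases anchored at the cell surface, where MMP14 cuts collagen and activates MMP2. Mmp14 stood at 278 and 269 CPM at day 0, 454 and 447 CPM in DMSO, and 490 and 472 CPM with 4-PBA. The day 4 libraries were all higher than day 0 (log2 fold change 0.72, SE 0.0304, adjusted p = 3.59e-21 by edgeR for DMSO). Mmp15, another collagen-cutting membrane type, had 7.02 and 7.38 CPM at day 0, 60.2 and 61.2 CPM in DMSO, and 62.5 and 61.7 CPM with 4-PBA. Its level in DMSO was thus 8.40-fold that of day 0 (log2 fold change 3.07, SE 0.0600, adjusted p = 4.68e-31 by edgeR). Mmp16 was low, with 5.51 and 5.27 CPM, then 7.40 and 8.21 CPM in DMSO and 8.62 and 7.67 CPM with 4-PBA, and rose by a log2 fold change of 0.54. Mmp24, the neural membrane type, fell from 0.823 and 0.897 CPM to 0.285 and 0.391 CPM in DMSO. It overlaps BC029722 on the opposite strand, which had 34.9 to 39.1 CPM. Mmp17 had at most 0.741 CPM in a library and was not called.

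The gelatinase Mmp2, whose protein digests type IV collagen and denatured collagens, had 35.7 and 35.9 CPM at day 0, 135 and 140 CPM in DMSO, and 147 and 148 CPM with 4-PBA. Groups were separate, with little spread within each, and the level in DMSO was 3.84-fold that of day 0 (log2 fold change 1.94, SE 0.0392, adjusted p = 1.19e-30 by edgeR). The other gelatinase, Mmp9, was near the limit of detection, with 2 and 3 counts at day 0, 22 and 27 in DMSO and 26 and 22 with 4-PBA. Its level was at least 6.82-fold higher in DMSO and at least 7.40-fold higher with 4-PBA. Per kilobase of exon the DMSO levels were 40.8 CPM for Mmp2 and 0.101 CPM for Mmp9, so the gelatinase RNA was almost all Mmp2.

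The stromelysins differed among themselves. Mmp10, stromelysin 2, stood at 13.4 and 13.1 CPM at day 0, 1.87 and 1.73 CPM in DMSO, and 1.42 and 1.51 CPM with 4-PBA. It fell in all day 4 libraries, by a log2 fold change of -2.88 in DMSO (SE 0.136, adjusted p = 8.93e-20 by edgeR), the largest fall among the tested members. Mmp3, stromelysin 1, rose by 2.11 on the log2 scale, from 8 and 14 counts to 50 and 60 counts in DMSO, and 4-PBA libraries had 50 and 58. Mmp11, stromelysin 3, which is activated inside the cell by furin, had 44.4 and 44.5 CPM, then 90.8 and 92.0 CPM in DMSO and 92.4 and 89.7 CPM with 4-PBA. Its level was 2.05-fold that of day 0 in DMSO. The collagenase Mmp13 had 5 and 9 counts at day 0 and 20 and 24 in DMSO (log2 fold change 1.44, adjusted p = 0.0335 by edgeR). That call was lost with the DESeq2 Wald test (adjusted p = 0.0755) and held in 2 of 6 fits that left out 1 library. The elastase Mmp12 had 0 and 24 counts at day 0 and 62 and 63 in DMSO. Its log2 fold change of 2.23 was 1.41 without day 0 replicate 1 and 8.83 without day 0 replicate 2, and DESeq2 did not call it (adjusted p = 0.201). Within the row on chromosome 9, Mmp10 was thus called lower and Mmp3, Mmp12 and Mmp13 higher, and the other 6 genes had at most 12 counts over all libraries.

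Among the remaining MMP genes, Mmp19, a basement membrane protease, had 10.2 and 10.2 CPM at day 0, 14.5 and 14.0 CPM in DMSO, and 13.9 and 13.3 CPM with 4-PBA. The rise was called (log2 fold change 0.48). Mmp28, also called epilysin, had 19.0 and 17.6 CPM, then 21.9 and 19.7 CPM in DMSO and 19.3 and 19.0 CPM with 4-PBA. Its groups lay close together, and the call in DMSO (log2 fold change 0.19, adjusted p = 0.0257 by edgeR) was lost in 2 of 6 fits that left out 1 library, with a value of 0.11 without DMSO replicate 1. Mmp23 was at most 0.934 CPM in a library and was not called.

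ADAMTS genes of the proteoglycanase group code for enzymes that cut versican and aggrecan, and all 6 tested rose. Adamts4 stood at 18.9 and 21.2 CPM at day 0, 127 and 119 CPM in DMSO, and 125 and 126 CPM with 4-PBA. Adamts5 stood at 16.5 and 17.6 CPM, 86.6 and 93.6 CPM, and 89.6 and 93.6 CPM in that order. These were 6.09-fold and 5.27-fold rises in DMSO (log2 fold change 2.61, SE 0.0487, and 2.40, SE 0.0518), and the day 4 groups overlapped. Adamts1 had a smaller change, from 57.6 and 56.8 CPM to 79.2 and 86.3 CPM in DMSO, and had 84.0 and 81.9 CPM with 4-PBA. Adamts15 was almost undetected at day 0, with 0.329 and 0.356 CPM, and had 9.48 and 10.4 CPM in DMSO and 12.9 and 11.2 CPM with 4-PBA. Adamts8 had 0.123 and 0.128 CPM at day 0, 3.20 and 4.03 CPM in DMSO, and 5.15 and 4.86 CPM with 4-PBA. The last pair are neighbours on chromosome 9 in RefSeq, and their levels in DMSO were 28.6-fold (Adamts15, SE 0.178 on the log2 scale) and 28.3-fold (Adamts8, SE 0.283) those of day 0. Adamts1 and Adamts5 are neighbours on chromosome 16, and their rises were 1.45-fold and 5.27-fold. Adamts9 stayed at or under 1.10 CPM, and its call (log2 fold change 0.80, adjusted p = 0.0480 by edgeR) held in 1 of 6 fits that left out 1 library, with a value of 0.45 without DMSO replicate 2.

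The procollagen N-proteinases remove the amino-terminal propeptide of fibrillar procollagens, a step before fibrils form. Adamts2 rose from 31.3 and 32.4 CPM to 80.9 and 75.04 CPM in DMSO, and had 86.3 and 81.7 CPM with 4-PBA. Adamts14 stood at 93.8 and 93.0 CPM, 147 and 139 CPM, and 128 and 131 CPM in the same order. Both were higher in every day 4 library than at day 0, by 2.45-fold and 1.53-fold in DMSO. Adamts3, the last of the group, was at most 0.655 CPM and was not called. Adamts7 and Adamts12, whose proteins cut cartilage oligomeric matrix protein, rose by 2.19-fold and 5.09-fold in DMSO. Adamts7 had 75.6 and 75.6 CPM at day 0, 166 and 164 CPM in DMSO, and 163 and 164 CPM with 4-PBA. Adamts12 had 4.14 and 4.46 CPM, 21.8 and 22.2 CPM, and 20.5 and 19.5 CPM.

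The largest rise among all tested members measured above the floor was that of Adamts16, a protease that can cut fibronectin. It stood at 0.556 and 0.199 CPM at day 0, 42.7 and 38.8 CPM in DMSO, and 52.4 and 51.2 CPM with 4-PBA. The level in DMSO was 117-fold that of day 0 (log2 fold change 6.87, SE 0.149, adjusted p = 6.41e-19 by edgeR). The day 0 libraries differed from each other, and the log2 fold change was 6.19 without day 0 replicate 2 and 7.66 without day 0 replicate 1. Adamts17 had 0.288 and 0.527 CPM at day 0, 2.39 and 2.99 CPM in DMSO, and 3.91 and 4.44 CPM with 4-PBA. Adamts6, whose protein is linked to fibrillin microfibrils, had 94.2 and 95.03 CPM, 186 and 169 CPM, and 167 and 165 CPM. These were rises of 6.33-fold and 1.88-fold in DMSO. Adamts10, its closest relative, changed little, with 23.3 and 22.7 CPM at day 0, 28.6 and 25.9 CPM in DMSO, and 30.6 and 26.9 CPM with 4-PBA (log2 fold change 0.25 in DMSO, adjusted p = 0.00198 by edgeR).

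The ADAM genes split. Adam19, a shedding protease related to ADAM12, had 96.2 and 89.8 CPM at day 0, 292 and 307 CPM in DMSO, and 312 and 296 CPM with 4-PBA. The level in DMSO was 3.22-fold that of day 0 (log2 fold change 1.69, SE 0.0375, adjusted p = 8.94e-26 by edgeR), with no overlap. Adam12 itself rose far less, from 26.6 and 27.7 CPM to 34.6 and 31.8 CPM in DMSO, and had 36.6 and 35.8 CPM with 4-PBA. Its log2 fold change in DMSO was 0.29 (SE 0.0592, adjusted p = 5.97e-05 by edgeR). Adam10, a sheddase of Notch receptors and cadherins, had 130 and 133 CPM, 172 and 177 CPM, and 182 and 181 CPM, a 1.33-fold rise in DMSO. Adam17, the sheddase of tumour necrosis factor, had 101 and 102 CPM, 107 and 108 CPM, and 109 and 104 CPM. Its log2 fold change of 0.08 in DMSO lay just at the threshold and was not called. Adam9, a widely expressed sheddase, had 189 and 197 CPM, 182 and 190 CPM, and 187 and 194 CPM, and its groups overlapped (adjusted p = 0.196 by edgeR).

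ADAM genes that fell included active proteases and non-proteolytic members. Adam8, known from leukocytes and from regenerating muscle, had 35.5 and 36.6 CPM at day 0, 8.35 and 6.67 CPM in DMSO, and 6.14 and 6.81 CPM with 4-PBA. All day 4 libraries were far under day 0 (log2 fold change -2.27, SE 0.0871, adjusted p = 1.64e-21 by edgeR). Cd68, the leading leukocyte marker, was also highest at day 0, and its part in the fall of Adam8 was not tested. Adam23, a neural member without an active protease site, had 14.1 and 14.5 CPM, 2.88 and 2.79 CPM, and 2.61 and 3.64 CPM, a log2 fold change of -2.34 in DMSO. Adam15, which carries an integrin-binding motif, fell less, from 91.9 and 91.4 CPM to 76.9 and 73.7 CPM in DMSO, and had 84.1 and 83.7 CPM with 4-PBA. Adam11, another member without an active site, was called lower (log2 fold change -0.57), but the value was -0.22 without day 0 replicate 1 and -0.89 without day 0 replicate 2. The low gene Adam5 was called higher (2.32-fold), and Adam1a, Adam2, Adam4, Adam21, Adam22 and Adam32 were not called, all at most 2.84 CPM in a library.

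**Figure D2:**
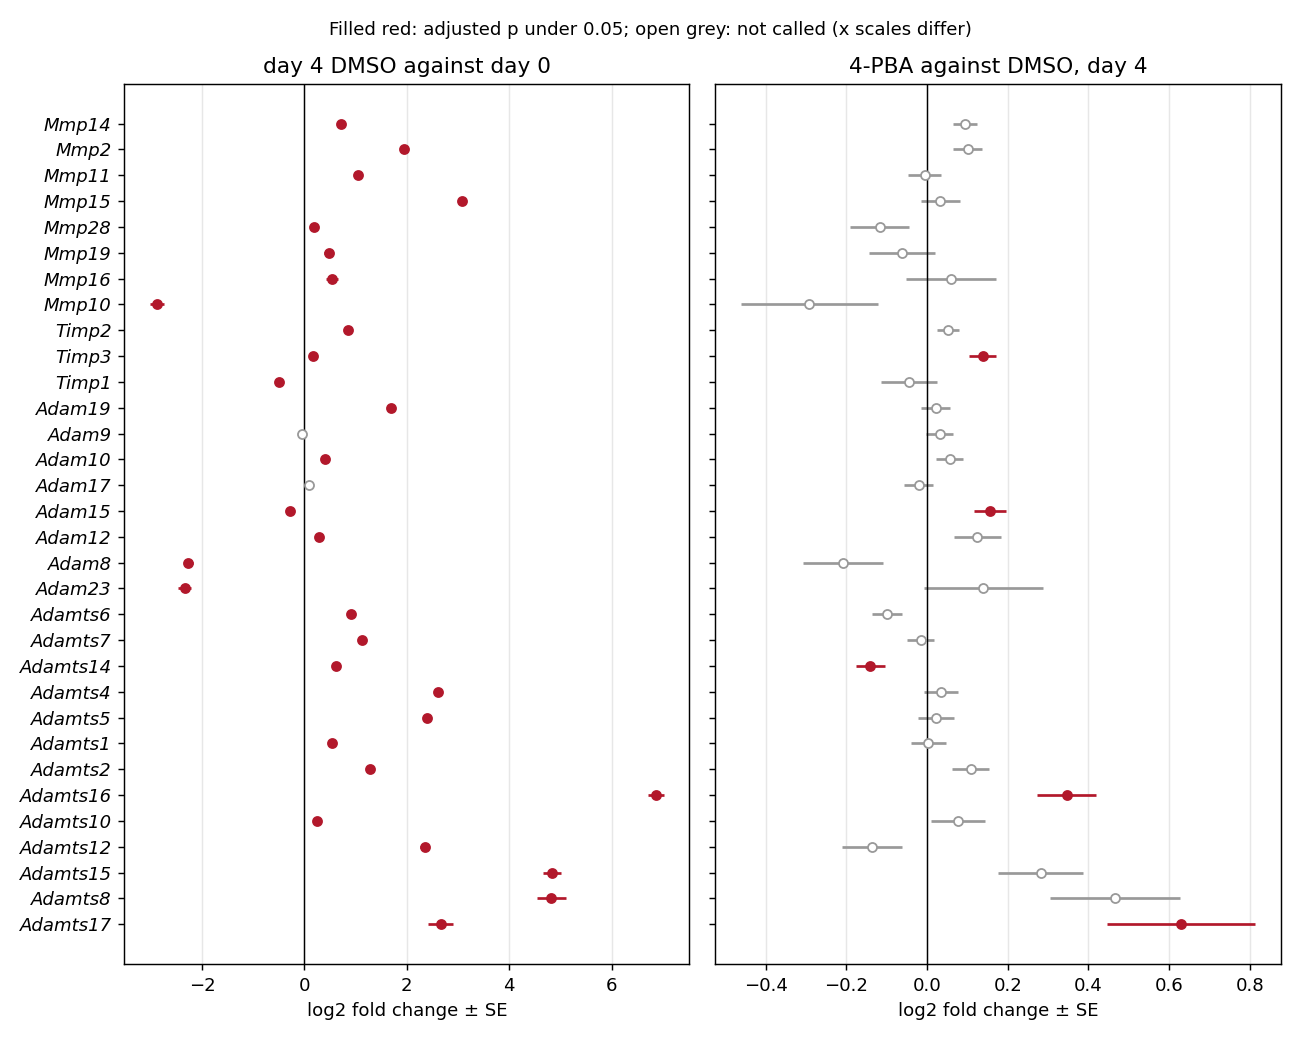
Log2 fold change with its SE (bars) for the same 32 members, DMSO against day 0 at left and 4-PBA against DMSO at right, with filled points for adjusted p under 0.05 and different x scales. The left panel spans -2.88 (Mmp10) to 6.87 (Adamts16), while no member of the right panel passes 0.63 (Adamts17) in size.

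Levels can be compared between genes only per length, and were divided by the summed length of each gene's exons in GENCODE M21. On this scale Timp1 led the members at day 0 (332 CPM per kilobase) and Timp2 was next (211). With DMSO the order was Timp2 (383), Timp1 (236), Mmp14 (75.5), Adam9 (45.2), Adam19 (42.1), Mmp2 (40.8), Timp3 (40.6) and Adam10 (35.5). With 4-PBA it was Timp2 (398), Timp1 (229), Mmp14 (80.7), Adam9 (46.2), Timp3 (44.7), Mmp2 (43.7) and Adam19 (42.7). The leading genes thus changed places between day 0 and day 4. In DMSO the libraries of Adam19, Mmp2 and Timp3 overlapped on this scale, so the order among these 3 is not beyond their spread.

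Summed per length, TIMP genes stood at 571 and 587 CPM per kilobase at day 0, 673 and 648 in DMSO, and 680 and 662 with 4-PBA. The MMP sum was 91.4 and 89.4, then 173 and 173, and 183 and 179. The ADAMTS sum was 65.4 and 65.8, then 150 and 146, and 148 and 147. The ADAM sum was 128 and 130, then 155 and 159, and 162 and 161. Every family sum was higher in all day 4 libraries than at day 0. The TIMP sum divided by the MMP sum was 6.25 and 6.56 at day 0, 3.89 and 3.74 in DMSO, and 3.72 and 3.71 with 4-PBA. Inhibitor RNA thus exceeded MMP RNA in every library, by a smaller ratio at day 4.

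**Figure D3:**
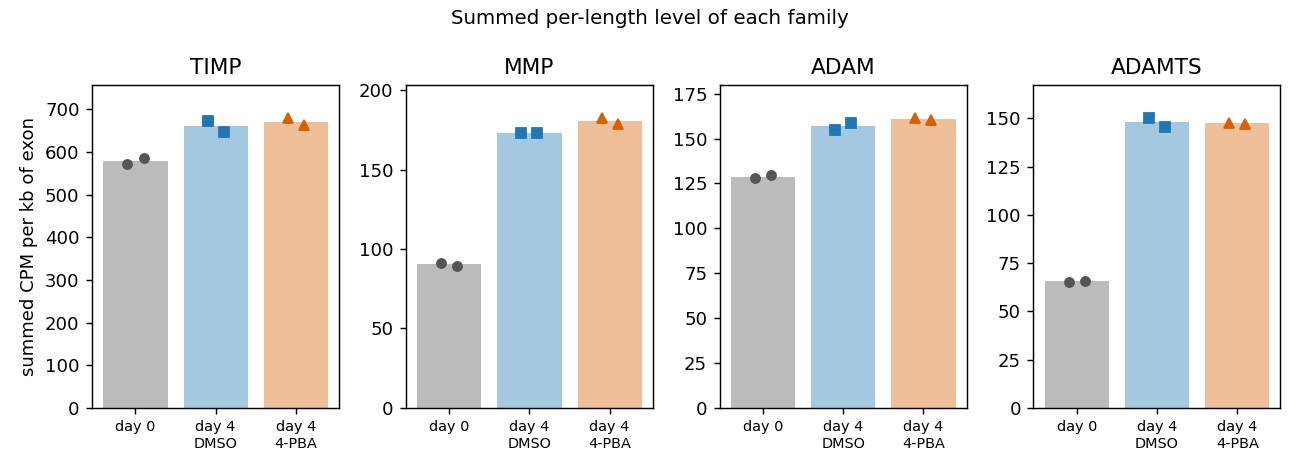
Summed CPM per kilobase of exon of each family, with points for the 2 libraries of a group and bars for their mean, starting at 0 on separate y axes. The MMP and ADAMTS bars at day 4 are about level between DMSO and 4-PBA and well above day 0, and the TIMP and ADAM bars differ less between day 0 and day 4.

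At day 4, 4-PBA and DMSO libraries differed little in these genes. Of the 51 tested members 5 were called, 4 higher and 1 lower with 4-PBA, against 4.90% of all tested genes (2.13% higher and 2.78% lower). At an unadjusted p under 0.05 by edgeR there were 13. The share of all tested genes at that threshold is not given here, and 4.90% is not its counterpart. The 5 calls became 0 when 4-PBA replicate 1 was left out, 1 when 4-PBA replicate 2 was, and 8 when DMSO replicate 2 was, and the DESeq2 Wald test gave 3. The median log2 fold change was 0.06 against 0.00 for all tested genes, and the median absolute change was 0.12 against 0.09. By family, 0 of 15 MMP, 1 of 16 ADAM, 3 of 16 ADAMTS and 1 of 4 TIMP genes were called, and 0 members were called with a change of 2-fold or more, against 0.0688% of all tested genes. The summed cycling markers were higher and the summed muscle markers lower with 4-PBA than in DMSO, without overlap of the libraries. The muscle markers did not move as a set. Des, Acta1 and Mymk were called lower (log2 fold change -0.11, -0.09 and -0.17) and Cdh15 was called higher (0.11). Myod1, Myf5, Myog, Myh3 and Ckm were not called. The part of the muscle and cycling markers in these differences was not tested.

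The called genes were Timp3, Adam15, Adamts16, Adamts17 and Adamts14, whose values by library are given with each gene. In all 5 the libraries of both treatments were separate. Libraries were also separate in members that were not called, such as Mmp14 and Adamts8, so separation does not set the called genes apart. Timp3 was 1.10-fold higher with 4-PBA (0.14 on the log2 scale, SE 0.0333, adjusted p = 0.00972 by edgeR). Without DMSO replicate 2 its log2 fold change was 0.08, and the call held in 4 of 6 fits that left out 1 library. Adam15 was 1.11-fold higher (0.16, SE 0.0397, adjusted p = 0.0136 by edgeR), and its level with 4-PBA lay between those in DMSO and at day 0. The call held in 3 of 6 such fits. Adamts16 was 1.27-fold higher (0.35, SE 0.0726, adjusted p = 0.00756 by edgeR), and the call held in 4 of 6 such fits but not with DESeq2 (adjusted p = 0.768). Adamts17, a poorly covered gene, was 1.55-fold higher (0.63, SE 0.183, adjusted p = 0.0370 by edgeR), and the call held in 3 of 6 such fits and was lost with DESeq2 (adjusted p = 0.110). Adamts14 was the 1 member that fell, with a log2 fold change of -0.14 (SE 0.0356, adjusted p = 0.0136 by edgeR), and its call held in 3 of 6 such fits.

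**Figure D4:**
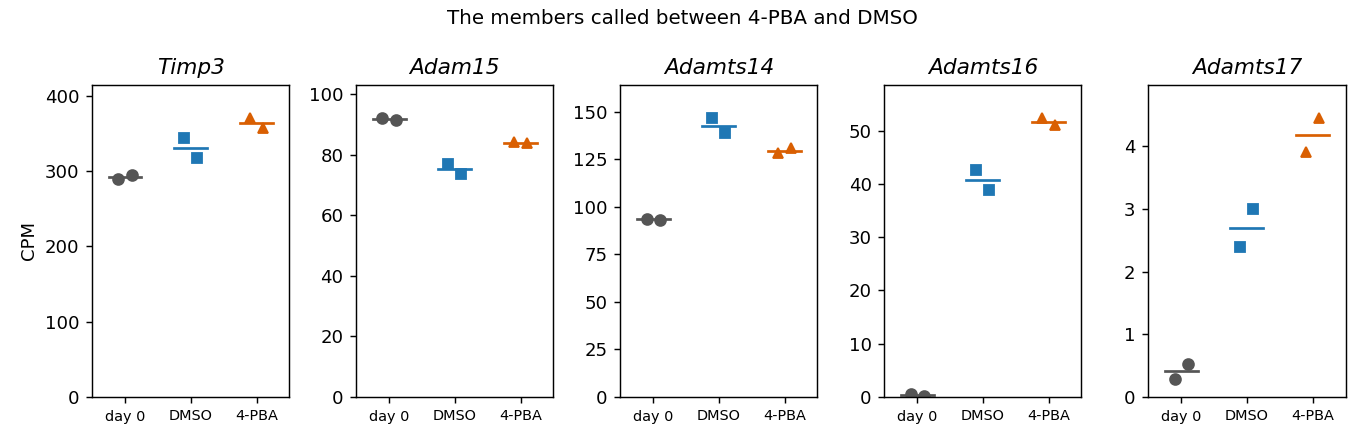
CPM of the 5 members called between 4-PBA and DMSO, with points for libraries and lines for group means, on y axes that start at 0. The 4-PBA libraries lie above both DMSO libraries for Timp3, Adam15, Adamts16 and Adamts17 and under both for Adamts14.

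Among the abundant members that were not called, Timp2 differed by 0.05 (adjusted p = 0.350 by edgeR), Mmp14 by 0.09 (adjusted p = 0.0620), Mmp2 by 0.10 (adjusted p = 0.101) and Adamts6 by -0.10 (adjusted p = 0.129) on the log2 scale. Mmp14 was called with library size as the only scaling. For Timp1 the difference was -0.04 (adjusted p = 0.843 by edgeR), with -0.15 without DMSO replicate 2 (adjusted p = 0.00102) and 0.07 without DMSO replicate 1, so 1 DMSO library set its sign. Adamts8 had 1.38 times as much RNA with 4-PBA, with libraries that did not overlap, and was not called (adjusted p = 0.0904 by edgeR).

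Against the same day 0 libraries, which both day 4 groups share, 38 of the 51 members were called with 4-PBA, 32 higher and 6 lower, against 65.6% of all tested genes (33.2% higher and 32.4% lower). The median log2 fold change was 0.64 against 0.02. At least 2-fold changes were called for 23 members (20 higher and 3 lower), against 21.2% of all tested genes (12.8% higher and 8.46% lower). In these libraries 10 of 15 MMP genes rose and 2 fell, 4 of 16 ADAM genes rose and 3 fell, 15 of 16 ADAMTS genes rose, and 3 of 4 TIMP genes rose and 1 fell. Side by side, the log2 fold changes against day 0 were 1.94 in DMSO and 2.04 with 4-PBA for Mmp2, 3.07 and 3.10 for Mmp15, 6.87 and 7.22 for Adamts16, 4.84 and 5.12 for Adamts15, -2.88 and -3.17 for Mmp10, and -0.49 and -0.54 for Timp1. Adamts13, the protease of von Willebrand factor, was called with 4-PBA (1.40, adjusted p = 0.0241 by edgeR) and not in DMSO (1.09, adjusted p = 0.0817), at no more than 0.435 CPM in any library. The call with 4-PBA held in 2 of 6 fits that left out 1 library (adjusted p from 0.0308 to 0.0978 by edgeR), and the difference between the treatments was not called (adjusted p = 0.835). Mmp24 was also called with 4-PBA in 2 of 6 such fits, Adam5 and Mmp13 in 4 of 6, and Mmp12 in 5 of 6, with a log2 fold change of 1.53 without day 0 replicate 1 and 8.94 without day 0 replicate 2.

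Genes that act with these proteases were taken from lists of activators, inhibitors, relatives and substrates. The counts of each list stand against 33.8% of all tested genes higher and 32.6% lower in DMSO than at day 0, and the genes named are those with the largest called changes among genes whose higher group reached 5 CPM. Of 21 tested activators and cell surface partners, 12 rose and 8 fell in DMSO against day 0, among them Plau (urokinase, log2 fold change 1.58, SE 0.0325, adjusted p = 1.88e-30 by edgeR) and its receptor Plaur (-2.41, SE 0.0606, adjusted p = 1.88e-19). Their median was 0.19. The list of other inhibitors and clearance receptors also holds the procollagen proteinase enhancers Pcolce and Pcolce2. Of its 8 tested genes, 2 rose and 3 fell (median -0.15), and the named falls were of Pcolce2 (-1.96) and the serpin Serpine2 (-1.15). Outside the rule for names, the other fall was of Pcolce (-0.12), and the rises were of Reck (0.82) and Lrp1 (0.61). The falls on this list were thus mostly of enhancers. Of 10 related genes, 9 rose and 0 fell (median 1.34), led by the ADAMTS-like Adamtsl2 (6.52) and Adamtsl1 (3.47), whose proteins lack a protease domain. Of 18 matrix substrates, 14 rose and 3 fell (median 1.01), with 5.11 for the proteoglycan Dcn and 2.34 for the collagen chain Col1a1. Of 26 membrane substrates of ADAM10 and ADAM17, 10 rose and 12 fell (median -0.07), with 2.64 for the adhesion molecule Ncam1 and -2.70 for the growth factor Areg. The medians stand beside 0.02 for all tested genes. Matrix substrates were thus mostly higher. All but 4 of the 26 membrane substrates were called, against 66.3% of all tested genes. Those called were divided between higher and lower, as over all tested genes.

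Between 4-PBA and DMSO, 2 of the 21 activators and partners rose and 1 fell, and 1 of the 8 genes on the list of other inhibitors and clearance receptors rose and 1 fell. Of the 10 relatives 0 rose and 1 fell, of the 18 matrix substrates 3 rose and 1 fell, and of the 26 membrane substrates 3 rose and 5 fell. These counts stand against 4.90% of all tested genes called (2.13% higher and 2.78% lower). By the same rule for names, the activators and partners were the plasminogen activator Plat (log2 fold change 0.20, adjusted p = 6.27e-04 by edgeR) and the ADAM10 partner Tspan15 (0.13, adjusted p = 0.00941). The enhancer Pcolce rose by 0.15 and the clearance receptor Lrp1 fell by 0.13. Adamtsl1 fell by 0.30, the basement membrane gene Nid2 rose by 0.22 and the fibronectin gene Fn1 fell by 0.21. Among membrane substrates the growth factor Ereg fell by 0.43 and the Notch ligand Dll1 rose by 0.36. Areg, with 3.83 CPM in DMSO and 2.59 CPM with 4-PBA, was under the level for names and fell by 0.55 (adjusted p = 0.0136 by edgeR). The 18 called genes over the 5 lists became 9 when 4-PBA replicate 1 was left out and 7 when 4-PBA replicate 2 was.

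For 3 members, the genes with the most similar profile were sought among 10681 genes, by Pearson correlation of log2 CPM over the 6 libraries. Timp1 was most like 5930430L01Rik, Sec61a1, Ndufaf6, Ndufs7 and Med14 (r from 0.997 to 0.998). Mmp2 was most like Iglon5, App, Ccdc80, Loxl1 and Mgam (r from 0.99978 to 0.99997). Adam12 was most like Ggcx, Ggt7, Ankrd24, Tax1bp3 and Tmem267 (r from 0.996 to 0.997). The 6 points are 3 groups of 2 libraries, so r mainly follows the group means.

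Members near the limit of detection are given for completeness. The filter on low counts was not passed by 8 described genes (Adamts18, Adamts20, Adam33, Adamts19, Adam18, Adam28, Mmp1b and Adam3), with 11 to 39 counts over the 6 libraries. The genes with 1 to 9 counts were Adam29, Adam34, Adam30, Mmp25, Mmp8, Mmp27, Mmp20, Adam1b, Mmp21, Adam26a, Mmp1a, Adam6b and Adam7. Those with 0 counts were Adam24, Adam25, Adam20, Adam39, Adam26b, Adam34l, Mmp7 and Adam6a, most of them ADAM genes known from testis. Mmp1a and Mmp1b, Adam1a and Adam1b, and Adam6a and Adam6b are related copies, and how the counting treated reads that match both is not given in the sources used here, so their values are uncertain.

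Whether counting used strand is not given in the sources used here, and genes that overlap another on the opposite strand in GENCODE M21 are therefore uncertain. This holds for 11 of the 32 genes with values by library, namely Timp3, Adam19, Adamts7, Adam17, Adamts4, Adam15, Mmp11, Mmp28, Adam8, Mmp19 and Adamts8. Overlapping levels included those of Tmem198b over Mmp19 (34.1 to 42.2 CPM), Tbc1d2b over Adamts7 (31.0 to 42.8 CPM) and Iah1 over Adam17 (16.4 to 25.5 CPM). For Timp3 and Adam15 the overlapping genes, Syn3 and 4731419I09Rik, had at most 2.18 and 0.483 CPM. Ncam1, Pcolce, Nid2, Fn1, Ereg and Dll1 also have such an overlap.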

How the data were processed

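The deposited table holds raw counts per gene symbol for 6 libraries, 1 column each, neither normalised nor pooled, per the file headers. Per the labels' protocols, total RNA was treated with DNase and directional libraries were made. The submitters' processing notes name GRCm39; the aligner, counter, annotation and use of strand are not given in the sources used here. Every symbol in the table names a gene, and 0 columns of other samples were present. Genes were kept with filterByExpr, TMM scaled the library sizes, and 1 model over all 6 libraries (3 residual degrees of freedom) was fitted with robust glmQLFit in edgeR 4.0.16 (R 4.3.3). Comparisons used glmQLFTest with Benjamini-Hochberg adjustment, and the SE is the absolute log2 fold change divided by the square root of F. Values by library are given for members with at least 5 CPM in a group or called between 4-PBA and DMSO, and of each pathway list the 2 called genes with the largest change are named among those whose higher group reached 5 CPM. The members and lists were chosen with earlier results of these data known. GENCODE M21 gave exon lengths and overlaps. Alternatives used DESeq2 1.42.0 and limma 3.58.1. The code was tested on simulated data for 4-PBA against DMSO, where it recovered 137 of 200 planted changes, with 7 false calls. Among 150 planted changes of 1.5-fold or more it recovered 118, and among the rest, of 1.25-fold, it recovered 19. Small differences can thus be missed. Figures were drawn with matplotlib 3.10.9. At this depth (47908926 to 74697397 counts per library), the spread and number of libraries limit the precision, except for genes with few counts. Replicate numbers did not pair libraries: same-numbered deviations correlated at -0.028, -0.0031 and -0.012.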

Additional observations from a re-analysis of the deposited data

How the results depend on the processing

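The count of members called between DMSO and day 0 was 39, and between 4-PBA and day 0 it was 38. Both stayed within 1.5 times of these under each alternative with a p threshold, with 35 to 38 and 35 to 38 when 1 library was left out, and were 23 and 23 with a change of at least 2-fold required. The 5 members called between 4-PBA and DMSO were fewer with the DESeq2 Wald test (3), with an adjusted p under 0.01 (2) and with a 2-fold change (0), and ranged from 0 to 8 when 1 library was left out. Leaving out 4-PBA replicate 1 gave 0, leaving out 4-PBA replicate 2 gave 1, and the count was 8 (4 higher and 4 lower) without DMSO replicate 2, of which 3 were among the 5. Pathway genes called between 4-PBA and DMSO (18) ranged from 7 to 22 when 1 library was left out, the values without 4-PBA replicate 1 and replicate 2 being 9 and 7. The cause of these shifts was not tested. A replicate block, with no pairing given by the labels, left the counts at 39, 5 and 38. No called member reversed its direction in 698, 699 and 698 alternative values of the 51 members in the 3 comparisons. Call losses in the comparison of DMSO with day 0 concerned Adamts9, Adam5, Mmp13, Mmp12, Mmp28 and Adam11, and in that of 4-PBA with day 0 Adamts13, Mmp24, Adam5, Mmp13 and Mmp12. Counts limit what can be said of Mmp9, Mmp12, Mmp13 and Timp4.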
